A study of Solanum lycopersicum with 12 samples.

Results

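CHS1, CHS2 and DFR are flavonoid synthesis genes that carry a gene symbol on the tomato (Solanum lycopersicum) array used here. They were found by requiring that the symbol of a probe set, in the array's annotation or in the current gene table, equals CHS1, CHS2 or DFR. Each gene was measured by 1 probe set. These are 3 of the 10038 probe sets tested and 3 of the 803 gene records with a symbol. The study hybridised RNA of whole roots and leaves to 12 Affymetrix arrays, in 4 groups of 3 that the titles call root-ck, root-Cd, leaf-ck and leaf-Cd, ck being the groups without cadmium (Cd). The source field calls root-Cd treated with Cd, but it describes all 6 leaf arrays as untreated, so leaf-Cd rests on its title alone and each leaf comparison below carries that contradiction. The labels give no dose, time, plant age, cultivar or growth condition, and no field states that replicate arrays are separate plants. P-values therefore measure only the spread between these arrays, which may be technical.

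Chalcone synthase, the product of CHS1 and CHS2, joins a phenylpropanoid thioester to malonyl units and makes the chalcone from which all flavonoids are built. Dihydroflavonol 4-reductase, the product of DFR, acts further down, where dihydroflavonols leave the route to flavonols and go on to anthocyanins. In tomato, flavonoids collect in the epidermis, in glandular hairs and in the fruit skin, and the pathway is known to follow light: in Arabidopsis the transcription factor HY5 binds and activates the chalcone synthase promoter.

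All 3 transcripts were above background on every leaf-ck array. CHS2 was measured in both organs and stood 10.8-fold higher in leaf-ck than in root-ck after subtraction of each array's median, and 7.16-fold higher as deposited. On root-ck arrays 1 and 2 it lay within 0.42 of background. CHS1 and DFR were at background in every root array. With Cd, mean CHS2 and CHS1 in leaves differed from control by 1.0 and 0.60 and mean DFR by -1.86 on the log2 scale, and none of these differences passed the test. Levels and Cd differences are log2 expression per probe set as deposited, organ differences are taken after median subtraction unless stated otherwise, and background is the highest of 23 negative control probe sets on the same array, at 3.13 to 3.57 in root and at 2.69 to 3.01 in leaf.

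The green tissue markers matched the organ labels, and the root markers did so in part. All 8 green tissue markers were higher in leaf-ck than in root-ck after median subtraction, by a median of 1.48 on the log2 scale. The differences ran from 0.47 for PSBR to 3.06 for CAB5. As deposited, PSBR was lower in leaf-ck, at 12.60 against 12.72. The iron-uptake regulator FER was at background on the 3 leaf-ck arrays and at 10.19 ± 0.16 (SD, n = 3) in root-ck. Of the 6 root epidermis and uptake genes 3 were lower in leaf-ck and 1, the ferric reductase FRO1, was higher. PT1 and AMT1-2 did not pass, with differences of -0.26 and -0.31 (limma adjusted p = 0.345 and 0.214). The root arrays held green tissue transcripts at high level, with CAB4 at 10.85 ± 1.0 in root-ck. Of the 2 glandular trichome markers, SSTLE1 was measured in leaf and MTS1 was at background on all 12 arrays. Leaf-Cd array 3 had the lowest limma array weight of the 12, 0.155, and results that change with it are given with and without it.

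CHS2, a chalcone synthase gene, was the member measured in all 4 groups. Its 3 root-ck arrays read 3.60, 3.70 and 5.65, and its root-Cd arrays 3.12, 4.43 and 4.18. The leaf-ck arrays read 6.68, 7.04 and 7.75 and the leaf-Cd arrays 6.62, 8.66 and 9.17. Every leaf array thus lay above every root array, while within each organ the control and Cd arrays overlapped. Root-ck array 3 stood apart from the other root-ck arrays, and root-Cd array 1 was the only array at or below its background. Root-ck arrays 1 and 2 lay only 0.42 and 0.33 above theirs. In bulk organs, fewer cells of a type and less RNA per cell cannot be told apart.

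CHS1, the other chalcone synthase gene, was not above background on any root array. Its root-ck arrays read 3.07, 3.04 and 3.37 and its root-Cd arrays 2.81, 2.72 and 2.87, so no root difference is given. Its leaf-ck arrays read 3.47, 3.93 and 4.98 and its leaf-Cd arrays 3.30, 4.53 and 6.35. All 6 leaf arrays were above background, and the leaf groups overlapped: leaf-Cd array 1 lay below all leaf controls and leaf-Cd array 2 below leaf-ck array 3.

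DFR, the anthocyanin branch enzyme, was also at background on all root arrays, which read 2.50, 2.66 and 3.32 in root-ck and 2.53, 2.80 and 3.10 in root-Cd. In leaf-ck it read 3.17, 4.60 and 6.34, all above background. In leaf-Cd it read 2.61, 2.50 and 3.41, above background on 1 of 3 arrays. Only leaf-Cd array 3 overlapped the controls, lying just above leaf-ck array 1.

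**Figure D1:**
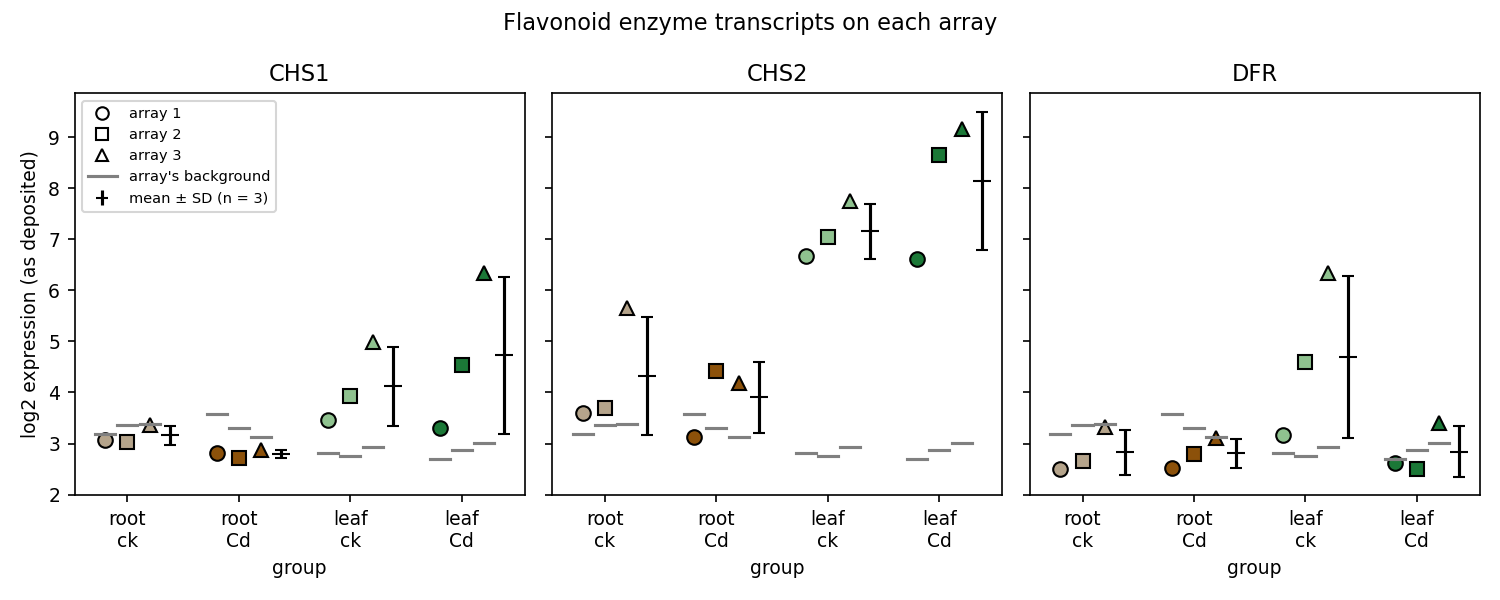
Log2 expression as deposited (vertical axis) of CHS1, CHS2 and DFR on each of the 12 arrays, by group (horizontal axis), with the array's own background as a grey line and the group mean ± SD (n = 3) beside the points. CHS1 and DFR lie at or under background in all root arrays, CHS2 lies between 6.62 and 9.17 in leaves, and DFR lies at background on leaf-Cd arrays 1 and 2.

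The comparison of roots with and without Cd could be made for CHS2 only. Its mean was 4.32 ± 1.15 in root-ck and 3.91 ± 0.70 in root-Cd (SD, n = 3 each). The difference of -0.41 (95% interval -1.96 to 1.14) did not pass (limma adjusted p = 0.861). Over the whole array 3.03% of probe sets passed in this comparison, and 0 of the 3 members did. The sign rested on 1 array: without root-ck array 3 the difference was 0.26. That array also had the highest summed level of the 8 green tissue markers among the root arrays, at 15.02 on the log2 scale against 14.10 and 14.38 on the other root-ck arrays and 13.43 to 13.99 in root-Cd. Its CAB5, a light-harvesting protein gene, read 10.52 against 8.29 and 6.90. All 8 markers had a lower mean in root-Cd than in root-ck, with a median difference of -0.98. Only 1 of them, CAB4, passed (-2.01, limma adjusted p = 0.0401), where 1.96% of all probe sets fell. The part of green tissue in the CHS2 values was not tested.

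In leaves, mean CHS2 was 7.16 ± 0.55 in leaf-ck and 8.15 ± 1.35 in leaf-Cd (SD, n = 3 each). The difference of 1.0 (95% interval -0.55 to 2.54, or from 0.682-fold to 5.83-fold) did not pass (limma adjusted p = 0.489). It was between 0.49, without leaf-Cd array 3, and 1.76, without leaf-Cd array 1. For CHS1 the means were 4.13 ± 0.78 and 4.73 ± 1.54, a difference of 0.60 (-0.76 to 1.96, limma adjusted p = 0.66). Without leaf-Cd array 3 that difference was -0.21. The intervals of both chalcone synthase genes include differences of either sign.

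DFR in leaves had the largest Cd difference of the 3 genes, from 4.70 ± 1.59 in leaf-ck to 2.84 ± 0.50 in leaf-Cd (SD, n = 3 each). The difference was -1.86 (95% interval -3.23 to -0.50), or 3.64-fold lower. It did not pass over all probe sets (limma adjusted p = 0.13, unadjusted p = 0.0121 in the same limma fit). In that fit 19.2% of all probe sets had an unadjusted p under 0.05. In this comparison 3.78% of probe sets passed after adjustment, and 0 of the 3 members did. Without leaf-ck array 1, the lowest control, the difference was -2.63 and passed (adjusted p = 0.0184), and without leaf-ck array 3, the highest, it was -1.04 (adjusted p = 0.29). Without leaf-Cd array 3 it was -2.15 (adjusted p = 0.109). Because 2 of the 3 leaf-Cd arrays were at background, the measured size depends on that floor.

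The test of whether the Cd difference itself differed between leaf and root could be read for CHS2 only, since the other genes had no root signal. The leaf difference exceeded the root difference by 1.40 on the log2 scale (95% interval -0.78 to 3.59, limma adjusted p = 0.521). Here 0.757% of probe sets passed.

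The genes were then compared with each other by how much they differed with Cd in leaf, using the log2 difference between probe sets on each array, which carries no information on absolute levels. The mean CHS2 minus DFR value was higher in leaf-Cd by 2.86, and the 3 leaf-Cd arrays, between 4.01 and 6.16, did not overlap the 3 leaf-ck arrays, between 1.41 and 3.51. The mean CHS1 minus DFR value was higher in leaf-Cd by 2.46, again with no overlap, leaf-Cd arrays lying between 0.69 and 2.95 and leaf-ck arrays between -1.36 and 0.30. DFR was at background on leaf-Cd arrays 1 and 2, so neither size is exact. With DFR set to no less than each array's background, a setting chosen after the values were seen, the differences were 2.71 and 2.31 and the groups still did not overlap. CHS1 and CHS2 differed in response by -0.40, and their arrays overlapped. The exact two-sided permutation p was 0.1 for each chalcone synthase gene against DFR and 0.4 for CHS1 against CHS2, or 0.15, 0.15 and 0.4 adjusted over these 3 pairs. With 3 arrays against 3 the smallest p such a test can give is 0.1, so none could pass, and the comparisons with DFR were chosen after the values were seen.

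Each of the 3 genes differed widely between the arrays of at least 1 leaf group, and in the same array order for most of them. Within leaf-Cd, CHS1 spanned 8.32-fold from the lowest to the highest array and CHS2 5.86-fold, and within leaf-ck DFR spanned 9.05-fold. The SD of CHS1 in leaf-Cd was larger than that of 99.1% of probe sets, that of CHS2 larger than 98.6%, and that of DFR in leaf-ck larger than 99.4%. CHS2 had such a spread in root-ck too, where its SD of 1.15 exceeded that of 99.3% of probe sets. The other leaf group of each gene spanned less, CHS1 2.86-fold and CHS2 2.1-fold in leaf-ck and DFR 1.87-fold in leaf-Cd. Those SDs exceeded 96.7%, 93.6% and 79.1% of probe sets, and DFR was at background on 2 of its 3 arrays there. Array 3 was the highest of its group for CHS1, CHS2 and DFR in both leaf-ck and leaf-Cd, which held for 14.5% of all probe sets. Array 1 was the lowest for all 3 genes in leaf-ck, and for CHS1 and CHS2 in leaf-Cd.

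Arrays of the same number in leaf deviated from their group means together over the whole array, at correlations of 0.35, 0.42 and 0.12 across probe sets, which are not independent replicates. Taken by number, the Cd minus control difference of CHS2 was -0.06, 1.62 and 1.42 for arrays 1, 2 and 3. That of CHS1 was -0.17, 0.60 and 1.37. That of DFR was -0.56, -2.09 and -2.94. DFR was therefore lower in all 3 number-matched differences and chalcone synthase higher in arrays 2 and 3, while array 1 showed little for either chalcone synthase gene. In root the same-number correlations were 0.00, -0.26 and 0.06, and equal numbers there are not taken as pairs.

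**Figure D2:**
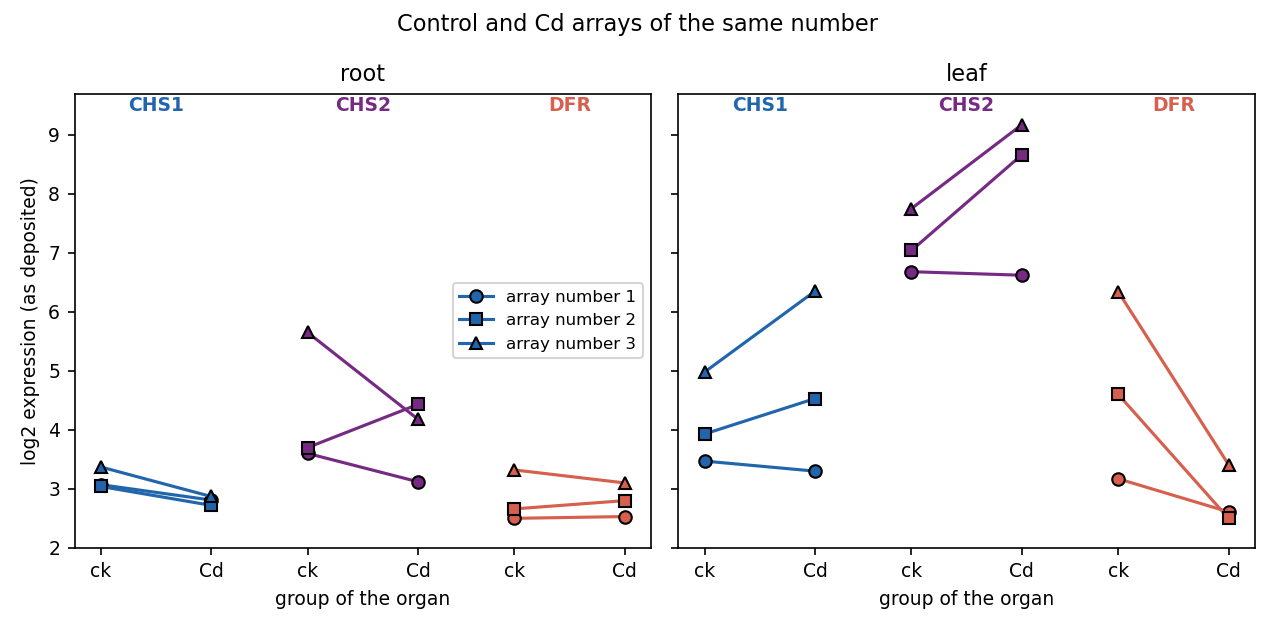
Log2 expression as deposited (vertical axis) of CHS1, CHS2 and DFR in control (ck) and Cd arrays (horizontal axis), with a line joining arrays of the same number, root on the left and leaf on the right. In leaf the lines of arrays 2 and 3 slope upward for CHS1 and CHS2 and downward for DFR, and array 1 is the lowest of the leaf-ck arrays for each gene.

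The trichome marker SSTLE1, a sesquiterpene synthase gene of glandular hairs, had the array order of CHS1 and CHS2 within each leaf group. Across the leaf groups the orders differed, CHS1 and CHS2 being highest on leaf-Cd array 3 and SSTLE1 on leaf-ck array 3. SSTLE1 read 4.86, 5.55 and 5.97 in leaf-ck and 4.04, 5.03 and 5.84 in leaf-Cd, highest on array 3 of each group and lowest on array 1. Array 3 was the highest in both leaf groups for 14.5% of all probe sets, and the share with the full order was not counted. Its leaf Cd difference of -0.49 did not pass (limma adjusted p = 0.552). The summed level of the 2 trichome markers, MTS1 being at background, ran from 5.13 to 6.10 in leaf-ck and from 4.39 to 5.96 in leaf-Cd. The 8 green tissue markers summed to between 15.12 and 15.24 in leaf-ck and between 14.81 and 15.05 in leaf-Cd, with none past the test. The 3' minus 5' difference of the actin control probe sets, a sign of RNA integrity, lay between -0.34 and -0.20 in leaf-ck and between -0.24 and -0.06 in leaf-Cd. That of the GAPDH control lay between 0.25 and 0.29 in leaf-ck and between 0.37 and 0.57 in leaf-Cd, so for this control the leaf groups did not overlap. The part of any of these in the members' values was not tested.

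The comparison of organs asked where these genes were transcribed without Cd. Since array medians were 7.46 to 7.50 in root and 6.85 to 6.89 in leaf, each array's median was subtracted for this comparison. CHS2 was higher in leaf-ck than in root-ck by 3.43 ± 0.70 (SE), or 10.8-fold (limma adjusted p = 0.00262), and by 2.84, or 7.16-fold, as deposited (limma adjusted p = 0.00425). Without root-ck array 3 the difference was 4.09, or 17.1-fold, and without root-ck array 1 it was 3.09, or 8.49-fold. CHS2 lay near background on root-ck arrays 1 and 2, so these sizes depend in part on that floor. Mean DFR was higher in leaf-ck by at least 3.94-fold against the root background, and by at least 2.62-fold with values as deposited. These bounds allow for the background floor and not for the spread between arrays. The limma test used the root values as read and gave 5.53-fold (95% interval 2.16 to 14.2, limma adjusted p = 0.00794, or 0.0187 as deposited). Without leaf-ck array 1 the bound was 6.71-fold and without leaf-ck array 3 it was 2.24-fold. As deposited, its leaf-ck and root-ck arrays overlapped. For mean CHS1 in leaf-ck the bound was 2.65-fold, or 1.76-fold as deposited, and it was 1.97-fold without leaf-ck array 3. The limma difference of CHS1, with root values as read, was 2.94-fold (95% interval 1.14 to 7.56) and did not pass (limma adjusted p = 0.0626). So 2 of the 3 members were higher in leaf-ck, where 21.3% of all probe sets were. The 3 leaf-ck arrays lay above the 3 root-ck arrays for all 3 members after median subtraction, as for 29.5% of probe sets.

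The same comparison was made between leaf-Cd and root-Cd. CHS2 was higher in leaf-Cd than in root-Cd by 4.86 ± 0.70 (SE), or 29.1-fold (limma adjusted p = 0.000235), and by 4.24, or 19.0-fold, as deposited (limma adjusted p = 0.000364). Without leaf-Cd array 1 the difference was 5.64, or 49.7-fold, and without leaf-Cd array 3 it was 4.34, or 20.3-fold. CHS2 lay below background on root-Cd array 1, so these sizes depend in part on that floor. Mean CHS1 was higher by at least 4.03-fold against the root background, or at least 2.63-fold as deposited. Its limma test, with root values as read, gave 5.84-fold (95% interval 2.27 to 15.0, limma adjusted p = 0.00638). Without leaf-Cd array 3 the bound was 2.28-fold, and without leaf-Cd array 1 it was 6.65-fold. The limma log2 difference of CHS1 without leaf-Cd array 3 was 1.72 (limma adjusted p = 0.00956). DFR, above background on 1 leaf-Cd array and on no root-Cd array, did not pass (limma adjusted p = 0.416), and no size is given for it. Again 2 of 3 members were higher in leaf, against 24.2% of all probe sets. CHS2 passed with and without Cd, DFR without Cd and CHS1 with Cd. Whether these organ differences themselves changed with Cd is the test given above, which CHS2 did not pass and which was not read for the others. For CHS2 the descending order of means was leaf-Cd, leaf-ck, root-ck and root-Cd, in which neither the step between the leaf groups nor that between the root groups passed. For CHS1 leaf-Cd stood above leaf-ck by a step that did not pass, and the root groups, at background, have no order. For DFR leaf-ck came first, and the leaf-Cd mean of 2.84 lay within the leaf background range of 2.69 to 3.01.

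**Figure D3:**
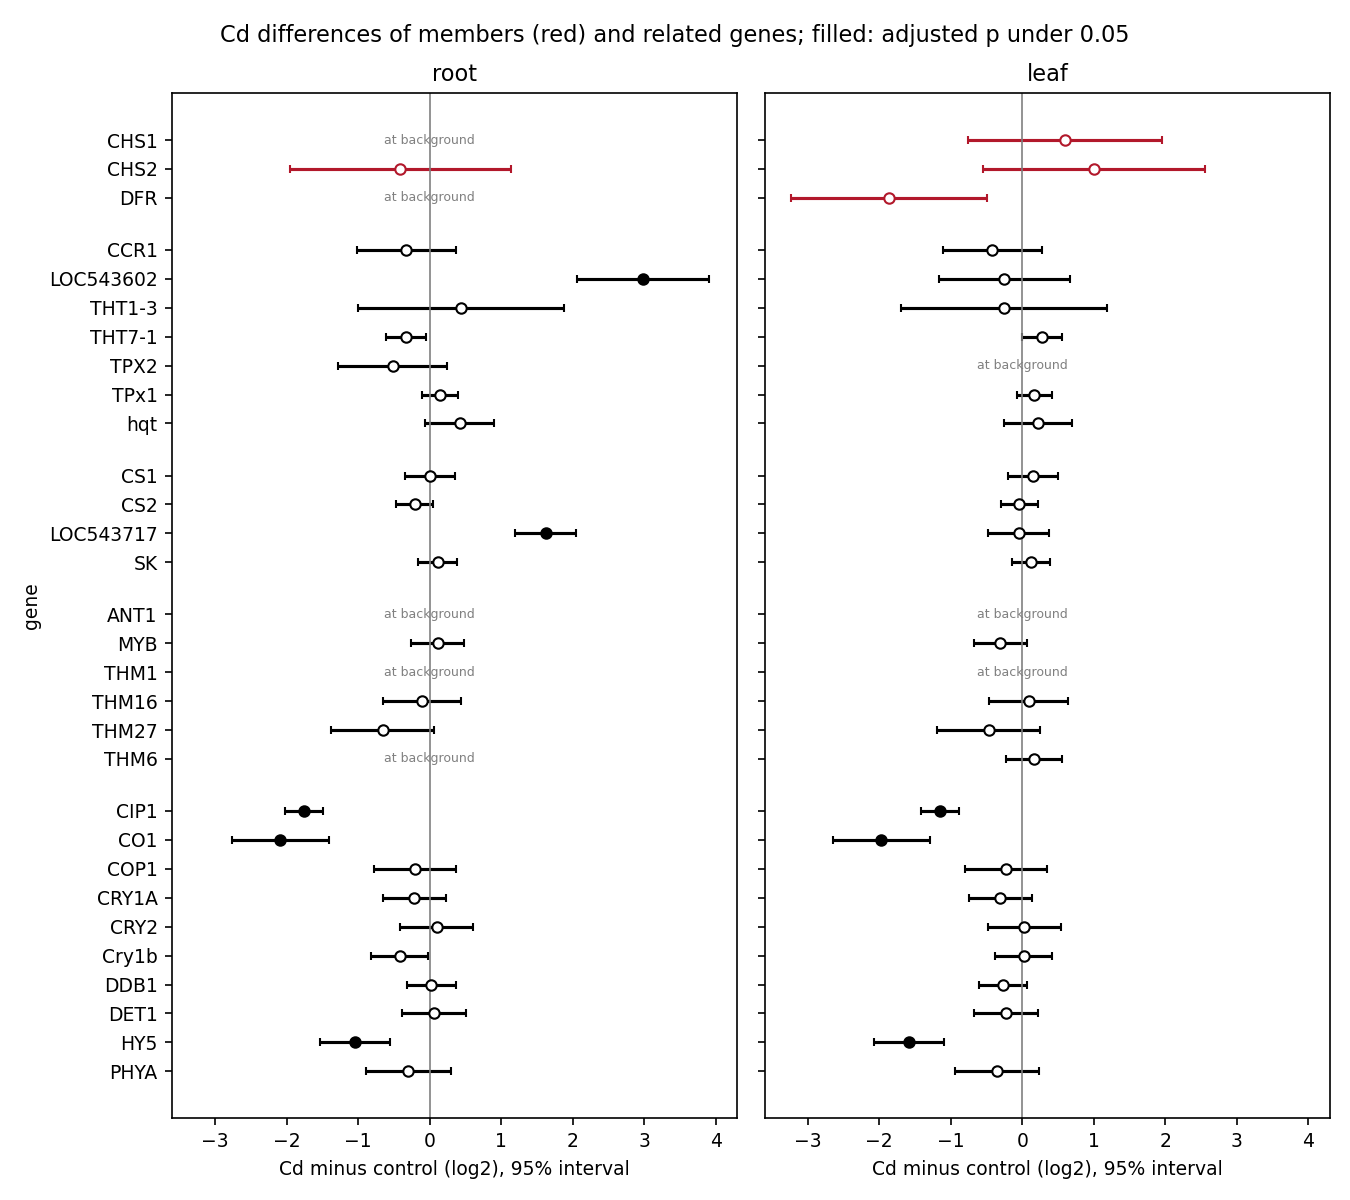
Cd minus control difference on the log2 scale (horizontal axis) with its 95% interval from the limma fit, in root and leaf, for the 3 members in red and the genes of 4 related lists in black (vertical axis). Filled points passed at the adjusted threshold of 0.05; the intervals of the members, such as -3.23 to -0.50 for DFR in leaf, are wider than those of most other genes.

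Other genes around the pathway came from lists of symbols. The lists were chosen with earlier results of these data known, so counts of calls in them are not a test. Over the whole array 3.03% of probe sets passed with Cd in root and 3.78% in leaf. None of the 11 symbols of the phenylpropanoid entry (phenylalanine ammonia-lyase and the steps to the thioester) and none of the 16 symbols of other flavonoid enzymes matched a named probe set, so the steps between chalcone synthase and DFR were not analysed here. Chorismate synthase, which closes the shikimate pathway that feeds phenylalanine, differed little: CS1 by 0.00 in root and 0.15 in leaf, and CS2 by -0.21 and -0.04. SK differed by 0.11 and 0.12. Of the 4 genes of this list 1 rose in root, LOC543717 (synonym TSB, 1.62, limma adjusted p = 0.00227), and 0 passed in leaf. The list's median difference was 0.05 in root and 0.04 in leaf, against 0.02 over all probe sets in each organ.

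The branches that draw hydroxycinnamates away from flavonoids were represented by 7 genes matched by symbol. In root 1 of them rose, LOC543602 (synonym Eli3, 2.98, limma adjusted p = 0.00481), and in leaf 0 passed. The hydroxycinnamoyl quinate transferase gene hqt, which makes chlorogenic acid, differed by 0.42 in root and 0.22 in leaf. The tyramine hydroxycinnamoyltransferase genes THT1-3 and THT7-1 differed by 0.44 and -0.33 in root and by -0.26 and 0.28 in leaf. CCR1 differed by -0.33 and -0.42, and TPX2 by -0.52 in root, being at background in leaf. The median of the 7 was 0.14 in root and -0.04 in leaf.

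Regulators of the MYB family were measured for 6 genes, of which 0 passed with Cd in either organ. ANT1, a MYB factor that turns on anthocyanin synthesis in tomato, was at background on all 12 arrays, between 1.79 and 2.26. THM1 was at background on all arrays too. THM6 was at background in root and at 6.78 ± 0.28 in leaf-ck and 6.94 ± 0.25 in leaf-Cd (SD, n = 3 each), a leaf transcript with little difference with Cd. MYB (synonym THM18), THM16 and THM27 were lower in leaf-ck than in root-ck, with log2 differences of -3.64, -2.0 and -0.95. Of all 10038 probe sets 2203 were lower. MYB and THM16 were above background on 2 of 3 leaf-ck arrays, so their sizes depend on that floor. Passing as higher in leaf-ck were 3 regulators, THM6 and, at background, ANT1 and THM1. With Cd, THM27 differed by -0.66 in root and -0.47 in leaf (limma adjusted p = 0.347 and 0.487).

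Light signalling was the related list with the most changes. Because this list too was chosen with earlier results of these data known, neither that rank nor its counts are a test. Of its 10 genes 3 fell in root and the same 3 fell in leaf: HY5, CIP1 and CO1. Of all probe sets 1.96% fell in root and 1.54% in leaf. HY5 fell, with differences of -1.05 in root and -1.59 in leaf (limma adjusted p = 0.0322 and 0.00373). Its leaf-ck arrays read 6.92, 6.66 and 7.07 and its leaf-Cd arrays 5.54, 4.79 and 5.55. The leaf groups of HY5 did not overlap. CIP1, named for its interaction with COP1, fell with differences of -1.76 in root and -1.15 in leaf, by the higher of its 2 probe sets. CO1, a CONSTANS family factor, fell with -2.09 and -1.97. It was above background on only 1 of 3 root-Cd arrays, so its root size depends on that floor. The photoreceptor genes Cry1b, PHYA and CRY1A did not pass, with -0.42, -0.30 and -0.22 in root and 0.02, -0.35 and -0.31 in leaf. The list's median was -0.26 in root and -0.29 in leaf.

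Named genes whose profile over the 12 arrays lay nearest to each member were found by the mean absolute difference between log2 profiles, each less its own mean, among 737 other genes above background in at least 1 group. All likeness here includes the contrast between organs and differences between arrays that all genes share, and a shared pattern over these arrays follows from how the genes were chosen. CHS1 was at background on all root arrays, and DFR on all root arrays and on 2 of the leaf-Cd arrays, where their values have no order. For CHS2 the nearest were XET2, a xyloglucan endotransglycosylase gene (0.61), LOC778328 (0.69) and TCP3, a TCP transcription factor gene (0.70), against a median of 2.08 over all candidates. XET2 had a higher leaf-Cd than leaf-ck mean, 10.01 ± 0.76 against 9.20 ± 0.49, a difference that did not pass (limma adjusted p = 0.46).

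For CHS1 the nearest were psi14B (0.46), the expansin gene EXPA10 (0.52) and the lipoxygenase gene loxC (0.52), against a median of 1.12. Their leaf differences with Cd were -0.45, -0.77 and 0.77, so they did not share a direction with Cd, and none passed (limma adjusted p = 0.551, 0.318 and 0.112).

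For DFR the nearest were LEJA1 (0.39), LOC543694 (0.40) and XTH1, a xyloglucan endotransglucosylase/hydrolase gene (0.47), against a median of 1.01. Their leaf differences with Cd, whose sign the choice of near profiles favours, were -1.12, -1.37 and -1.65, and none passed (limma adjusted p = 0.149, 0.0778 and 0.166).

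**Figure D4:**
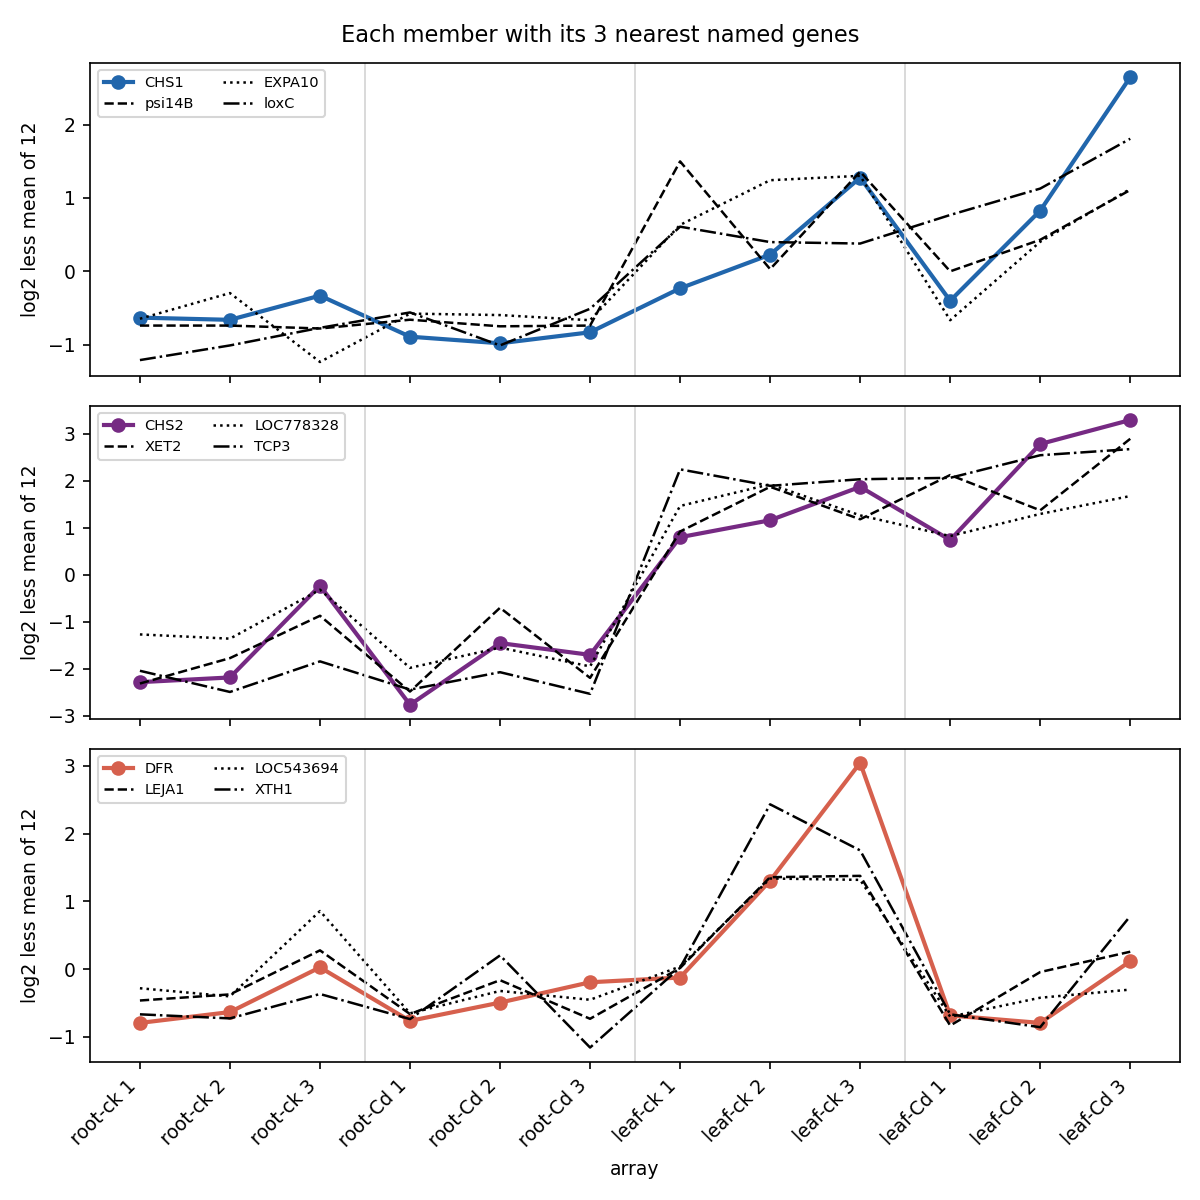
Log2 expression less each gene's mean over the 12 arrays (vertical axis) by array (horizontal axis), for each member as a thick line with its 3 nearest named genes as thin black lines. For DFR all 4 lines are high on leaf-ck arrays 2 and 3, and for CHS2 all 4 lie higher in leaf than in root.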

How the data were processed

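The authors deposited log2 expression for each probe set of single-channel Affymetrix tomato arrays. Per the labels, RNeasy columns gave the RNA, of which 100 ng was biotin-labelled. MAS5 and RMA stand in the submitters' processing notes with no version or stated role. No depth applies: the number of arrays limits the precision. Of 10209 probe sets, 171 controls were left out. Symbols (909 probe sets, 9.06%) come from the array's 2007 annotation and were matched to a current gene table. The 4 group means were modelled over all 12 arrays in limma 3.58.1 under R 4.3.3 (lmFit and eBayes, 8 residual and 2.84 prior degrees of freedom). P-values are two-sided, with Benjamini-Hochberg adjustment over 10038 probe sets and a call at 0.05. The script was tested on simulated data. Cd comparisons used the values as deposited, and organ comparisons the values less each array's median. A group at or below background on all 3 arrays gives a bound, against the mean over its arrays of the higher of background and the gene's value. Such a bound is of means and allows for no spread between arrays, and limma tested the values without that floor. Exact permutation tests used scipy 1.17.1 in Python 3.11.15.

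Each gene was taken by its probe set with the highest mean. Of the list genes, CIP1, LOC543602 and CRY1A had 2 probe sets each, and the lower probe set of each is not reported. Of each related list up to 6 genes are named, those with the largest Cd difference in either organ, and for each member the 3 nearest profiles. Other names were chosen after values were seen. Lists were matched by exact symbol or synonym alone, so roles are given only where sure. Members and lists were chosen with earlier results of these data known. Leaf arrays were grouped by title. Same-number arrays were checked as pairs by correlating deviations from group means: all 3 leaf values were above 0.1, the root values were not. Alternatives tried were quantile normalization within organ, median subtraction, a background filter, array weights, a trended prior, each organ alone, the replicate block, leaving out each array and, for gene pairs, DFR at no less than background. No sequence is shown, as the sources used here hold none.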

Additional observations from a re-analysis of the deposited data

How the results depend on the processing

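In root, 0 of 3 members passed in every alternative run; without 1 array the CHS2 difference there ran from -0.76 to 0.26, positive only without root-ck array 3. In leaf, 0 passed except without leaf-ck array 1, when DFR made the count 1; CHS2 and DFR kept their signs in all 20 alternatives, and CHS1, from -0.21 to 1.32 without 1 array, did except without leaf-Cd array 3. Between organs, CHS2 passed in all 19 alternatives with and without Cd, as did DFR without Cd and CHS1 with Cd. CHS1 without Cd came to pass with array weights (adjusted p = 0.000981), without leaf-Cd array 1 (0.0188) or 3 (0.00798), without both leaf arrays numbered 3 (0.0197, chosen after seeing the data) and with the replicate block across organs (0.0297), where numbers do not pair the arrays. With the replicate block within organs no Cd call of a member changed: the adjusted p was 0.0545 for DFR, 0.286 for CHS2 and 0.268 for CHS1 in leaf, and 0.738 for CHS2 in root. The leaf response of CHS1 less that of CHS2 stayed between -0.70 and -0.04 when 1 array was left out, that of CHS2 less DFR between 2.33 and 3.51, and that of CHS1 less DFR between 1.93 and 3.06.

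Counts over all probe sets moved more. In root, 304 passed, 202 with root fitted alone, 3745 with array weights, and 85 to 409 without 1 array (118 and 123 without root-ck 1 or 3, 85 and 136 without root-Cd 1 or 2). In leaf, 379 passed, 65 with leaf alone, and 127 to 589 without 1 array (127 and 179 without leaf-ck 2 or 3, 589 without leaf-Cd 3); the split of 224 higher and 155 lower was 165 and 211 with the replicate block. For the difference between organs' responses, 76 passed, 705 with array weights, and 26 to 160 without 1 array. For leaf-ck against root-ck 4343 passed, with 2140 higher in leaf, against 7118 as deposited, with 999 higher. For leaf-Cd against root-Cd 4612 passed, with 2428 higher, against 7346 as deposited, with 1153 higher. The causes were not tested.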
